A study of Saccharomyces cerevisiae with 8 samples.

Results

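The galactose pathway of budding yeast (Saccharomyces cerevisiae) was examined through the nucleosomes over 7 listed genes: GAL1, GAL10, GAL7, GAL2, GAL3, GAL4 and GAL80. They are 7 of the 6002 nuclear protein-coding genes annotated by RefSeq, and all 7 were found by symbol. For each gene, calls were taken from 800 bp upstream of the coding sequence to its end. The map came from MNase-seq, the sequencing of DNA fragments that nucleosomes shield from micrococcal nuclease. The 8 libraries came from 4 strains, each untreated (n = 4) and treated (n = 4) with 1,10-phenanthroline (100 µg/ml, 30 min, 30 °C), a chelator that stops transcription in yeast. All libraries were labelled as sharing the PPY1 background of mating type a with the deletions his3Δ0, leu2Δ0, met15Δ0 and ura3Δ0 and the disruption bar1::leu2, G1 synchronisation and growth in YPD, a glucose medium. Each strain was labelled as carrying an insert of 81 bp in each of 2 genes, which are CKB2 and DGK1 for strain 1, PPT1 and SLM3 for strain 2, TRP4 and PAN5 for strain 3 and UBX5 and BSP1 for strain 4. The series was designed to ask how gene length and transcription bear on the regular arrangement of nucleosomes.

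The GAL genes are a textbook case of a regulated yeast promoter. Gal4 is the activator that binds upstream of the structural genes, Gal80 binds Gal4 and keeps it inactive, and Gal3 relieves Gal80 when galactose and ATP are present. In glucose the repressor Mig1, with the corepressor Tup1 and Cyc8, keeps GAL1 and GAL4 low, and the promoters of GAL1, GAL10 and GAL7 are classically described as packed with positioned nucleosomes around an open stretch that holds the Gal4 sites. GAL1 (galactokinase), GAL7 (galactose-1-phosphate uridylyltransferase) and GAL10 (UDP-galactose epimerase and mutarotase) encode the enzymes that convert galactose, and GAL2 encodes the galactose permease.

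Each nucleosome call has a dyad (its centre) and a score from 0 to 1, which is the mean of a width score (how sharply the fragments are placed) and a height score (how much coverage they hold). The libraries held 72650 to 75086 calls with median scores of 0.675 to 0.691 untreated and 0.653 to 0.663 treated, so scores over the whole genome also moved with the treatment. Well-positioned calls (width score of at least 0.6 and height score of at least 0.4) made up 53.0% to 56.8% of untreated and 47.5% to 51.5% of treated calls. Sequencing aimed at about 10 M read pairs a sample, per the labels, and how many stand behind each library cannot be read from the calls. The genotype genes URA3 and MET17 (labelled MET15) held 0 calls, HIS3 2 to 3, LEU2 8 to 11 and BAR1 11 to 13. The calls over HIS3 go against its labelled deletion. Those over LEU2 cannot be read against leu2Δ0, since the labelled disruption of BAR1 also names leu2. The part of the genotype in the GAL results was not tested. The inserts went against the labels, since the coordinate step at SLM3, labelled strain 2, was in both libraries labelled strain 3, so samples are named below by their strain label only, as the library labelled strain 1 and so on. GAL3 lies beyond that site on chromosome IV, and its calls in those libraries were offset by 84 bp (untreated) and 82 bp (treated) as deposited. After subtraction all offsets around the 7 genes were within 3 bp, and no other GAL gene lies beyond a site on its chromosome in a library with a step. No strain was repeated within a treatment, so the replicate spread behind each p-value is a spread among strains, and whether both libraries of a strain came from separate cultures is not stated.

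The 7 genes lie at 5 loci (build sacCer3). GAL7 (YBR018C, chromosome II, 274427 to 275527, minus strand), GAL10 (YBR019C, 276253 to 278352, minus strand) and GAL1 (YBR020W, 279021 to 280607, plus strand) form a cluster, in which GAL10 and GAL1 diverge from an interval of 668 bp and 725 bp separate the end of GAL10 from the start of GAL7. GAL2 (YLR081W) spans 290212 to 291936 on chromosome XII, GAL3 (YDR009W) 463434 to 464996 on IV, GAL80 (YML051W) 171594 to 172901 on XIII, all on the plus strand, and GAL4 (YPL248C) 79711 to 82356 on XVI on the minus strand. All these coordinates are those of the coding sequence. Pooled over the libraries, the calls of the regions formed 105 consensus nucleosomes, 92 of which were called in all 8 libraries and 77 of which were centred inside a GAL coding sequence. Each is named by its gene and the distance of its dyad from the coding start in bp, so that GAL1 -66 is centred 66 bp upstream of GAL1. The regions of GAL1 and GAL10 overlap and share nucleosomes, and that of GAL7 overlaps the region of GAL10 without a shared consensus nucleosome. The region of GAL4 reaches into YPL247C and that of GAL80 into SUR7.

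Few nucleosomes of the GAL regions changed score under phenanthroline beyond the spread between libraries. Of 92 tested with limma, 3 rose and 1 fell at an adjusted p under 0.05, or 4.35%. Among all 60135 nucleosomes tested, 2.87% rose and 5.51% fell, 8.38% in either direction. The median difference was 0.00509 over the 92 and -0.00667 over the genome. The untreated and treated scores did not overlap for 8 of the 92 (8.7%), 4 higher and 4 lower, where 6.31% and 10.9% of all nucleosomes did so. The 4 called nucleosomes lay at GAL1 -66, GAL3 +984, GAL2 +508 and GAL80 -745. The share called among the 92 was below that of the genome, and the results are therefore given nucleosome by nucleosome.

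**Figure D1:**
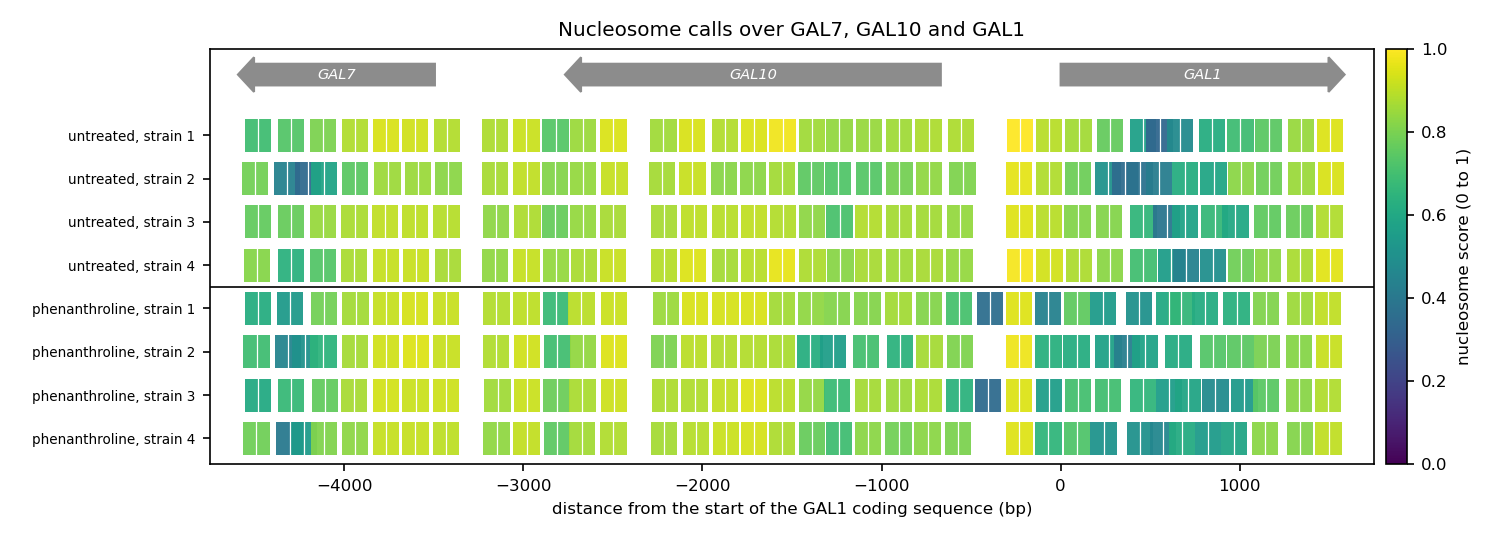
Nucleosome calls over GAL7, GAL10 and GAL1, by distance in bp from the start of GAL1, with 1 row for each library (strain as labelled) and gene arrows above. Each block is a call assigned to a consensus nucleosome, coloured by score. It is drawn 147 bp wide around its dyad (white line), also where the call itself was wider. Most nucleosomes were called in all 8 rows, and some calls inside GAL1 and GAL7 were made in only part of them. GAL1 -66 scored 0.879 to 0.933 in the untreated and 0.438 to 0.654 in the treated rows, and 2 treated rows held an extra call in the gap between GAL10 and GAL1.

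Between GAL10 and GAL1, 3 nucleosomes were called in all 8 libraries around an open gap. The nucleosome GAL1 -230 (dyad at chromosome II, 278791) had untreated scores of 0.998, 0.959, 0.95 and 0.985 in the libraries labelled strain 1 to 4 and treated scores of 0.95, 0.976, 0.946 and 0.95. It was high in every library and the groups overlapped (0.973 ± 0.0222 and 0.956 ± 0.0135, SD, n = 4 each; limma adjusted p = 0.639). Its mean score over the 8 libraries was at the 99.8th percentile of the genome, and its dyads had an SD of 1.67 bp over the libraries, at the 2.78th percentile. The gap between GAL1 -230 and GAL10 -107 (278459) measured 332 bp from dyad to dyad and left 185 bp outside the 147 bp footprints. It was at the 97.97th percentile of all distances between neighbouring nucleosomes. By library it measured 329, 316, 330 and 337 bp untreated and 336, 329, 334 and 344 bp treated, so the groups overlapped. This is the stretch in which the Gal4 sites of GAL1 and GAL10 are known to lie.

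The nucleosome next to GAL1 lost score. GAL1 -66 (278955), the last one before the coding sequence, scored 0.893, 0.879, 0.892 and 0.933 in the untreated libraries labelled strain 1 to 4 and 0.438, 0.633, 0.556 and 0.654 in the treated ones. Every treated library was below every untreated one, and all 4 labels moved the same way. The mean fell from 0.899 ± 0.0231 to 0.570 ± 0.0977, a difference of -0.329 with an SE of 0.0457 (limma adjusted p = 0.00658). The fall ranked 133 of the 60135 nucleosomes tested. Nearly all of it was in the height score, which was 0.960, 0.954, 0.986 and 0.987 untreated and 0.195, 0.399, 0.366 and 0.469 treated (difference -0.614; limma adjusted p = 0.0029). The width score was 0.827 and 0.783 on average, a difference of -0.0436 (limma adjusted p = 0.55), so no change in how sharply the fragments were placed was detectable. The call was in the authors' well-positioned class in 4 untreated libraries and 1 treated library. Its dyad was at -64, -65, -64 and -62 bp untreated and at -70, -67, -66 and -68 bp treated. These positions did not overlap between the groups, and the difference of -4 bp was not called (limma adjusted p = 0.245 over all nucleosomes). Among the 3345 nucleosomes centred within 150 bp upstream of a coding start, 10.8% fell and 0.628% rose, and 18 (0.538%), itself included, had a fall at least as large as that of GAL1 -66. In libraries made from many cells, a nucleosome held by fewer cells and one that the nuclease cuts more readily cannot be told apart. The digestion was tuned for each sample to about 80% mononucleosomes, per the labels, and its part in the result was not tested.

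The neighbours of GAL1 -66 on the GAL1 side and across the gap had values in the same direction that were not called. GAL1 +96 (279117) scored 0.863, 0.780, 0.815 and 0.875 untreated and 0.754, 0.624, 0.701 and 0.724 treated. The groups did not overlap, and the adjusted p was 0.0514 by limma and 0.0374 with the strain label as a block. GAL10 -107 scored 0.875, 0.806, 0.843 and 0.842 untreated and 0.709, 0.805, 0.643 and 0.803 treated, again without overlap (limma adjusted p = 0.149). Its width score did not follow, at 0.758 untreated and 0.823 treated, and the height score was 0.926 and 0.657. Inside the gap, at 401 bp upstream of GAL1 and 268 bp upstream of GAL10, a call was made in the treated libraries labelled strain 1 and 3, with scores of 0.360 and 0.345, and in no untreated library. Those are the treated libraries in which GAL1 -66 and GAL10 -107 scored lowest. Of all 73023 consensus nucleosomes, 0.871% were called in at least 2 treated and 0 untreated libraries.

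**Figure D2:**
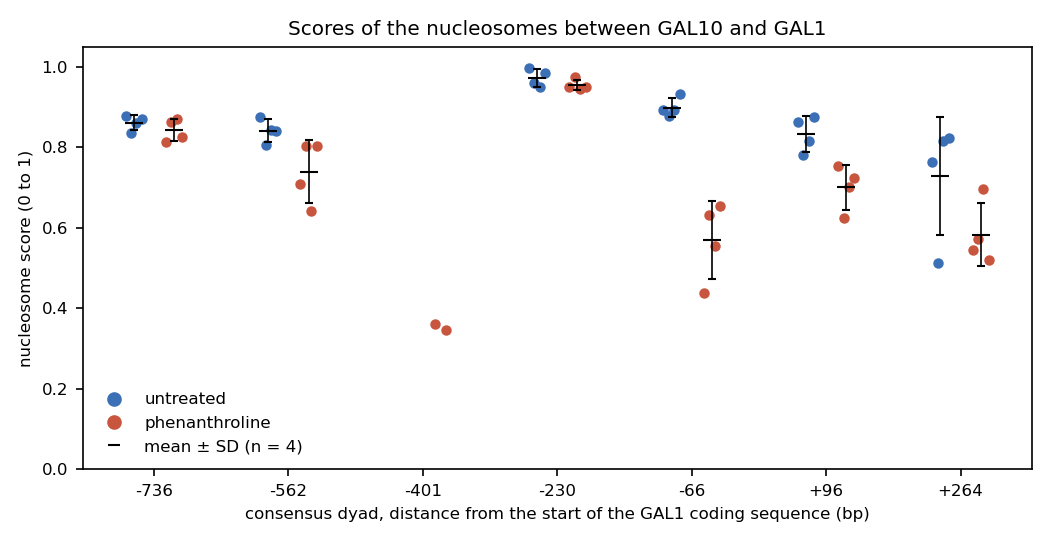
Score of each nucleosome from the start of GAL10 to the start of GAL1 and into both genes, by the distance of its consensus dyad from the GAL1 coding start in bp; points are libraries and bars are mean ± SD (n = 4), with no bars at -401, where 2 treated libraries held a call. GAL1 -66 is the nucleosome with the widest separation, 0.899 against 0.570 on average.

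Inside GAL1 the array was sharp at both ends and blurred in the middle. In the untreated libraries the mean score was 0.833 at +96, 0.574 at +456, 0.530 at +686, 0.596 at +851 and 0.932 at +1500. The nucleosome GAL1 +601 was called in 7 of the 8 libraries and scored 0.329 to 0.551 untreated. None of the nucleosomes inside GAL1 was called for the treatment. The distance from +264 to +456 was 185, 182, 193 and 188 bp untreated and 204.5, 202, 198 and 205.5 bp treated, which did not overlap (limma adjusted p = 0.0768 over all distances between neighbours, a measure added after seeing the data).

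GAL10 had the highest gene-body score and the least dyad scatter of the 7 genes. All of its coding nucleosomes called in every library scored between 0.776 and 0.925 on average in the untreated libraries, and the median SD of a dyad over the 8 libraries was 3.93 bp. None was called for the treatment. The array was interrupted near the 3' end. Between GAL10 +1546 and +1826 the dyads were 280 bp apart (133 bp outside the footprints), at the 99.66th percentile of such distances inside 1 gene. By library this gap measured 279, 265, 282 and 282 bp untreated and 290, 279, 285 and 284 bp treated, so the groups overlapped (277.0 ± 8.12 and 284.5 ± 4.51 bp). As background, an antisense transcript is known to start near the 3' end of GAL10 in glucose, at sites of the general regulatory factor Reb1.

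GAL7 lies downstream of GAL10 with its own open promoter. Its +1 nucleosome GAL7 -66 and its -1 nucleosome GAL7 -341 both scored high, at 0.867 ± 0.0276 and 0.852 ± 0.0227 untreated. GAL7 -66 scored 0.884, 0.828, 0.888 and 0.869 untreated and 0.915, 0.915, 0.922 and 0.901 treated, without overlap and without a call (limma adjusted p = 0.217), and the height score alone put its difference at -0.00169. Toward the 3' end the scores were lower and more variable. GAL7 +810 scored 0.733, 0.443, 0.768 and 0.639 untreated and 0.540, 0.457, 0.675 and 0.403 treated, and an extra call at +723 was made in both libraries labelled strain 2 and in the treated library labelled strain 4.

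GAL2, the permease gene, gained score at 1 nucleosome in its coding sequence. GAL2 +508 (chromosome XII, 290720) scored 0.524, 0.709, 0.524 and 0.514 untreated and 0.792, 0.827, 0.785 and 0.807 treated. The untreated library labelled strain 2 stood above the other untreated ones and still below every treated library. The mean rose from 0.568 ± 0.0940 to 0.803 ± 0.0185, by 0.235 with an SE of 0.0439 (limma adjusted p = 0.0184). The adjusted p was 0.118 without the libraries labelled strain 1, 0.078 without strain 3 and 0.101 without strain 4. Its dyad was at 528.5, 491, 529 and 531.5 bp untreated and at 503, 500, 501 and 501 bp treated. The library that stood apart in score was the only untreated one with a dyad near the treated positions. The shift of -18.75 bp was not called, and without the libraries labelled strain 2 it was -28 bp and was called (limma adjusted p = 0.00837). The calls of this nucleosome were 147 to 214 bp wide. Dyads of 528.5 and 531.5 bp cannot be centres of 147 bp calls, so the untreated calls labelled strain 1 and 4 were wider. The untreated library labelled strain 2 held no wider call in the GAL2 region. The distance to GAL2 +641 was 110.5, 164, 122 and 104.5 bp untreated and 137.0 ± 4.08 bp treated, so calls overlapped in both groups. The part of call width in the differences in score and dyad was not tested. Upstream of GAL2 an open stretch of 330 bp separated GAL2 -552 from GAL2 -222, at the 98.1th percentile of all such distances. The nucleosome GAL2 -222 was placed at -224 to -226 bp in 6 libraries and at -194.5 bp (untreated, labelled strain 3) and -190 bp (treated, labelled strain 1) in the other 2. In the same 2 libraries GAL2 +136 lay at 175 and 181 bp, against 124 to 152 bp in the others. The displaced pair was thus seen in 1 library of each group.

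GAL3, the galactose sensor, had the lowest gene-body score and the most dyad scatter of the 7. Its nucleosomes had a median dyad SD of 13.2 bp over the libraries, and the untreated means in its region ran from 0.465 at +1107 to 0.886 at -733. One of them rose: GAL3 +984 (chromosome IV, 464418) scored 0.585, 0.630, 0.635 and 0.559 untreated and 0.801, 0.808, 0.794 and 0.805 treated. The treated libraries lay close together and above every untreated one. The mean rose from 0.602 ± 0.0364 to 0.802 ± 0.00629, by 0.200 with an SE of 0.0232 (limma adjusted p = 0.00401). The height score rose by 0.315 (limma adjusted p = 0.00384), and the width score differed by 0.0844 (limma adjusted p = 0.13). Next to it, GAL3 +1107 lay at 1091, 1095, 1104 and 1094 bp untreated and at 1131, 1127, 1110 and 1116 bp treated, without overlap (limma adjusted p = 0.0666 over all dyads). At the coding start, GAL3 -2 scored 0.465, 0.55, 0.566 and 0.613 untreated and 0.757, 0.682, 0.714 and 0.585 treated, and these overlapped.

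GAL80, the inhibitor of Gal4, had a fixed count of 13 calls in its region in all 8 libraries. From the coding start to +291 the nucleosomes scored high, with untreated means of 0.913 at -30, 0.905 at +130 and 0.907 at +291. Its called nucleosome lay in the neighbouring gene: GAL80 -745 (chromosome XIII, 170849) is inside the coding sequence of SUR7, which encodes a plasma membrane protein of eisosomes. It scored 0.469, 0.577, 0.427 and 0.525 untreated and 0.614, 0.728, 0.76 and 0.748 treated, without overlap. The mean rose from 0.5 ± 0.0652 to 0.713 ± 0.0669, by 0.213 with an SE of 0.0430 (limma adjusted p = 0.0233). The adjusted p was 0.0616 without the libraries labelled strain 1, 0.0962 without strain 3 and 0.107 without strain 4.

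GAL4, the activator gene, showed no called nucleosome. From +35 to +702 its array scored 0.869 to 0.92 on average untreated. In the middle, from +1012 to +1529, some calls were made in only part of the libraries. GAL4 +1529 was called with scores of 0.261, 0.196 and 0.218 in the treated libraries labelled strain 1, 3 and 4 and in no untreated library, where 0.386% of all consensus nucleosomes were called in at least 3 treated and 0 untreated libraries. The reverse was seen in its promoter. GAL4 -143 was called with scores of 0.249, 0.376 and 0.259 in the untreated libraries labelled strain 1, 2 and 4 and in no treated library (0.366% of all for at least 3 untreated and 0 treated). A call at GAL4 -45 was made in the untreated library labelled strain 2 and the treated library labelled strain 1. All of these calls had scores far below the library medians. The nucleosome upstream of them, GAL4 -246, lay at -225, -243, -245 and -225 bp untreated and at -252, -254, -255 and -254 bp treated, without overlap (limma adjusted p = 0.106 over all dyads).

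**Figure D3:**
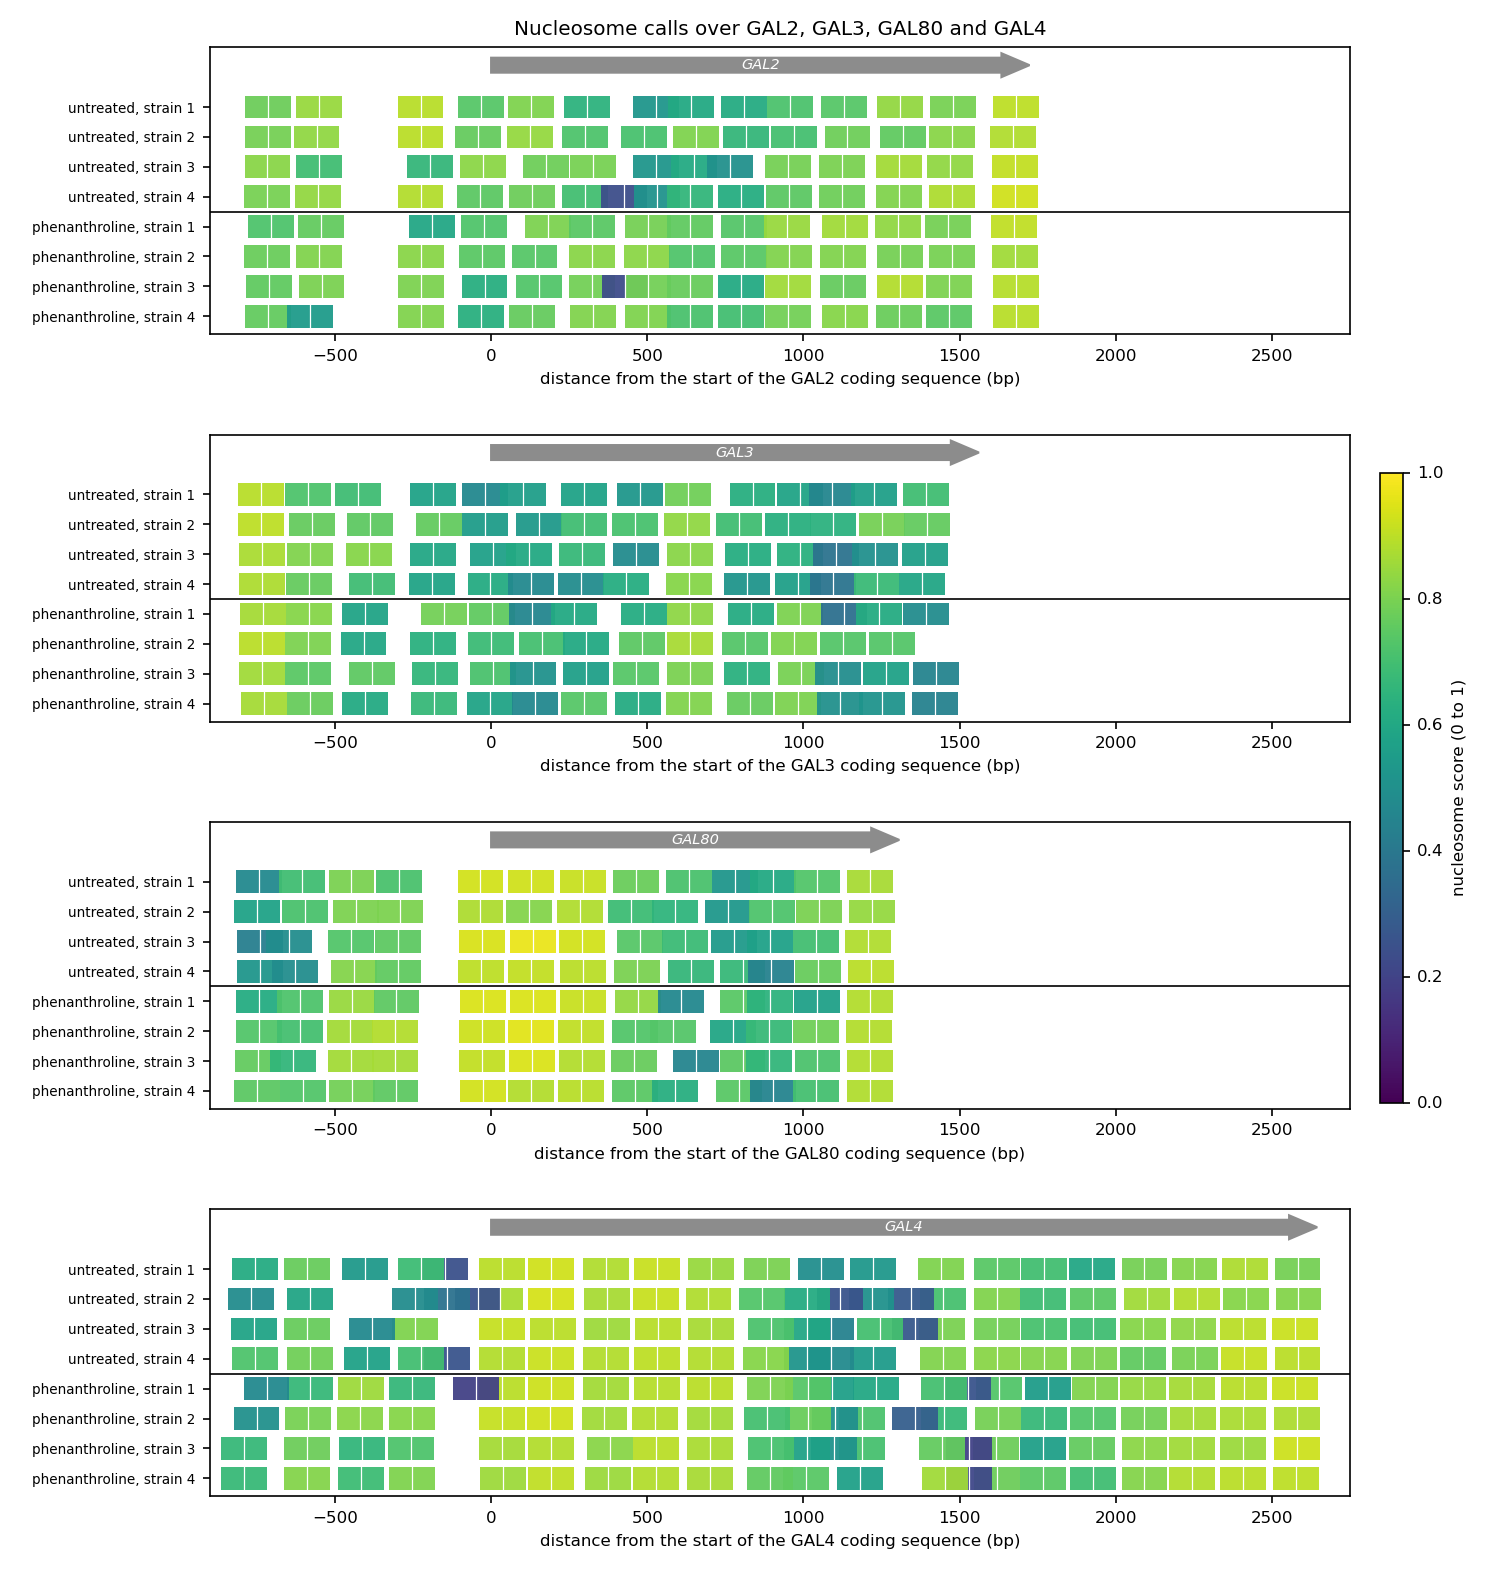
Nucleosome calls over GAL2, GAL3, GAL80 and GAL4, drawn as for the cluster, by distance in bp from the coding start of each gene; offsets are subtracted for GAL3 in both libraries labelled strain 3. GAL3 has the lowest untreated gene-body score of the 4 (0.595) and GAL80 the highest (0.751), and the weak call at GAL4 -143 is in 3 untreated rows.

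No dyad was called for a shift. With limma 0 of the 92 nucleosomes passed, where 1.27% of all nucleosomes were, and 18 of the 92 had an unadjusted p under 0.05 (19.6%, against 21.6% of all). The positions of 11 (12.0%) did not overlap between the groups, where 7.0% of all nucleosomes lay higher and 6.97% lower in coordinate without overlap. The smallest adjusted p was 0.0621, at GAL80 -301.

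**Figure D4:**
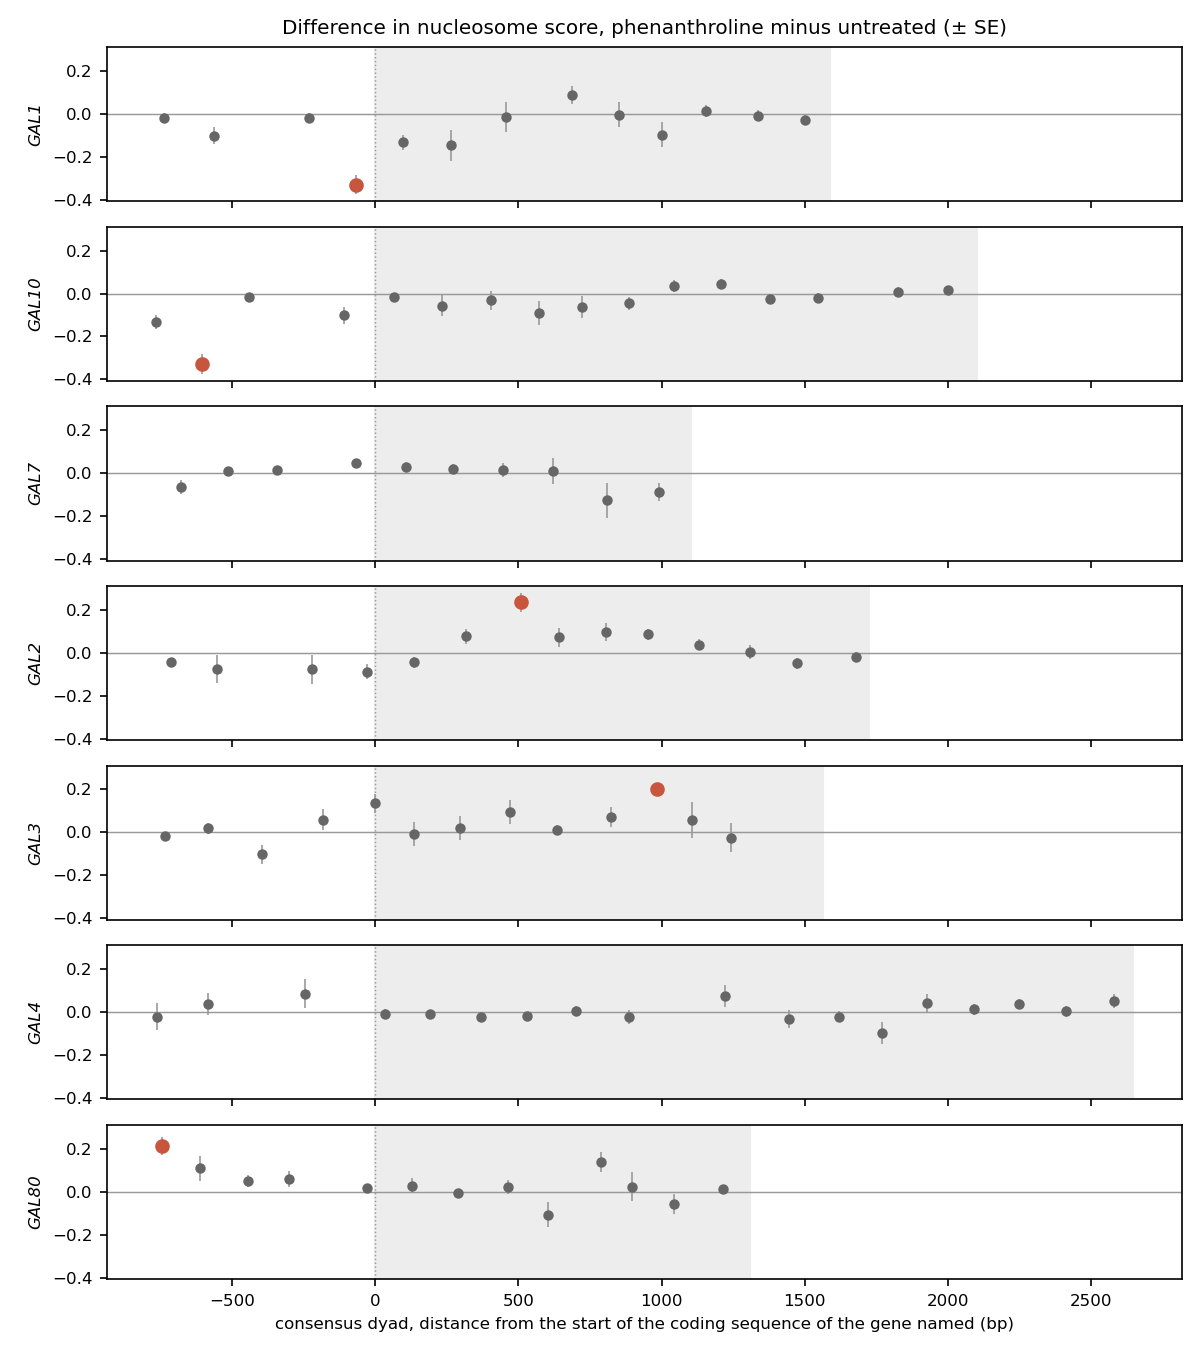
Difference in score (treated minus untreated, ± SE) of the nucleosomes called in all 8 libraries, by distance in bp from the coding start of each gene; grey is the coding sequence and red marks an adjusted p under 0.05. GAL1 -66 appears in the panels of GAL1 and GAL10, whose regions share it, with a difference of -0.329, and the rises are at GAL2 +508, GAL3 +984 and GAL80 -745.

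Averaged over the coding sequence, the GAL genes held scores from the 27.8th to the 92.0th percentile of all genes. The untreated gene-body scores were 0.855 ± 0.0490 for GAL10, 0.786 ± 0.0855 for GAL7, 0.751 ± 0.00728 for GAL80, 0.740 ± 0.0134 for GAL4, 0.718 ± 0.0445 for GAL2, 0.671 ± 0.0307 for GAL1 and 0.595 ± 0.0689 for GAL3. Each gene overlapped the next in this order. Well-positioned calls made up 98.1% ± 3.85 of the untreated calls inside GAL10 and 37.3% ± 27.8 of those inside GAL3, or 23.8% in GAL3 without the library labelled strain 2. With phenanthroline the gene-body scores were 0.844, 0.758, 0.757, 0.717, 0.758, 0.654 and 0.643 in the same order of genes, and all 7 pairs of groups overlapped, where 7.54% of all genes were higher and 8.93% lower without overlap. With limma, 0 of 7 were called, also at an unadjusted p under 0.05, where 6.81% of all genes were called and 25.5% had an unadjusted p under 0.05. All 4 strain labels had a higher score in GAL3 under phenanthroline, by 0.0478 on average (limma adjusted p = 0.455).

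The 800 bp upstream gave 3 calls in 7 genes, 2 lower and 1 higher, against 14.1% lower and 1.63% higher among all genes (15.7% called). GAL10 scored 0.907, 0.856, 0.875 and 0.909 untreated and 0.642, 0.76, 0.638 and 0.783 treated. The treated libraries were all lower, and the mean fell from 0.887 ± 0.0256 to 0.706 ± 0.0762, by 0.181 with an SE of 0.0359 (limma adjusted p = 0.0161). GAL1 scored 0.911, 0.870, 0.887 and 0.908 untreated and 0.654, 0.819, 0.672 and 0.808 treated, also without overlap. Its mean fell from 0.894 ± 0.0191 to 0.738 ± 0.0875 (limma adjusted p = 0.0339, or 0.0566 with the strain label as a block and 0.086 with scores centred on the library median). GAL1 and GAL10 are not separate cases, since their windows share the nucleosomes between them. Both windows also hold the weak call 268 bp upstream of GAL10, made only in the treated libraries labelled strain 1 and 3 (0.360 and 0.345). It lowers the means of those 2 libraries, so each fall is not lost score of the shared nucleosomes alone. GAL80 went the other way, from 0.710 ± 0.0373 to 0.799 ± 0.0202 without overlap (limma adjusted p = 0.0321, or 0.0582 with the block), and 4 of the nucleosomes of that window are inside SUR7. The calls at GAL1 were lost without the libraries labelled strain 1, 3 or 4 (adjusted p = 0.16, 0.102 and 0.0824), those at GAL80 without the same labels (0.11, 0.0988 and 0.138) and those at GAL10 without strain 1 or 4 (0.102 and 0.0504). Fits without a label had fewer libraries, and the share of all genes they called is not given here. With the block 10.2% of all genes were called. The remaining genes were not called. GAL2 was lower in every label, at 0.801 ± 0.0329 and 0.711 ± 0.0747, with an adjusted p of 0.125. GAL7, which shares no nucleosome with the GAL1 promoter, scored 0.853 ± 0.00957 and 0.854 ± 0.0104.

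For each gene the -1 and +1 nucleosomes were the neighbours with the widest gap between them, with +1 required to be centred between -150 and +200 bp of the coding start, and the depleted region is the distance between their dyads. For GAL1 this rule takes GAL1 -66 as +1, so its width of 165.5 bp is not the open stretch of the divergent promoter, which is counted for GAL10 (328 ± 8.76 bp untreated). At GAL2 it takes GAL2 -30 as +1, so the open stretch of 330 bp from -552 to -222 is not counted. At GAL3 it takes GAL3 -2, and the wider consensus distance of 212 bp from -395 to -183 is not counted. Behind GAL10 came GAL4 at 268 ± 9.13 bp, GAL7 at 267.2 ± 6.34 bp and GAL80 at 262.5 ± 4.43 bp, which overlapped each other. GAL2 at 184.4 ± 10.6 bp and GAL1 did not overlap, and GAL3 at 173.9 ± 20.2 bp overlapped both. All 3 were below GAL80 in the distance this rule takes, which at these 3 genes is not the widest upstream gap. Of the 7 regions, 3 were wider under phenanthroline, where 23.9% of all genes were wider and 26.0% were called in either direction. GAL4 measured 261, 272, 279 and 260 bp untreated and 286, 288, 291 and 293 bp treated. The groups did not overlap, and the difference was 21.5 bp with an SE of 4.54 (limma adjusted p = 0.0212). GAL80 measured 260, 258, 268 and 264 bp untreated and 276, 279, 277 and 281 bp treated, a difference of 15.75 bp (limma adjusted p = 0.015). GAL7 measured 269, 260, 275 and 265 bp untreated and 280, 278, 290 and 284 bp treated, also 15.75 bp apart (limma adjusted p = 0.0302). With the strain label as a block none of the 3 was called (adjusted p = 0.0547, 0.0523 and 0.0523), and the share of all genes called was 0.684%. Adjusted over all 53813 distances between neighbouring dyads instead of over genes, the same distances had limma adjusted p values of 0.0811, 0.0625 and 0.115. In the GAL regions 0 of 84 distances were called, against 0.911% of all. An unadjusted p under 0.05 was found for 9 of the 84 (10.7%), against 19.5% of all. None of the 3 calls was kept without the libraries labelled strain 1 (adjusted p = 0.117, 0.101 and 0.131), strain 2 (0.0768, 0.07 and 0.0838) or strain 4 (0.116, 0.0989 and 0.144). These fits had fewer libraries, and the share of all genes they called is not given here. The widths of GAL10, GAL2, GAL3 and GAL1 overlapped between the groups.

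At GAL7 and GAL80 the mean dyads on both sides of the wider region differed in place, and at GAL4 mainly the far one. None of these dyads was called when adjusted over all nucleosomes. The +1 nucleosome of GAL7 lay at -68, -75, -65 and -72 bp untreated and at -63, -64, -60 and -60 bp treated, 8.25 bp farther downstream. Its limma adjusted p was 0.0452 over genes, 0.0638 with the block and 0.142 over all dyads. The +1 nucleosome of GAL80 lay at -34, -34, -30 and -33 bp and at -27, -28, -30 and -25 bp, where the groups touched at -30 bp. The difference was 5.25 bp (limma adjusted p = 0.0495 over genes, or 0.115 with the block). These 2 of 7 were the +1 calls, where 17.8% of all genes moved downstream and 19.7% were called (0.305% with the block). Neither was kept without strain 1 (0.158 and 0.228), strain 2 (0.101 and 0.151) or strain 4 (0.206 and 0.203), again with fewer libraries. On the far side, GAL7 -341 lay at -337, -335, -340 and -337 bp untreated and at -343, -342, -350 and -344 bp treated, without overlap (difference -7.5 bp; limma adjusted p = 0.14 over all dyads). GAL80 -301 lay at -294, -292, -298 and -297 bp and at -303, -307, -307 and -306 bp, also without overlap, and its difference of -10.5 bp was larger than that of the +1 (limma adjusted p = 0.0621 over all dyads). The +1 of GAL4 was at 33.5 ± 3.11 and 35.75 ± 2.36 bp, with overlap, and the values that separated the groups there were those of GAL4 -246 on the far side. The +1 of GAL1 lay upstream of its untreated place in every label (-63.75 ± 1.26 and -67.75 ± 1.71 bp; limma adjusted p = 0.0631).

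**Figure D5:**
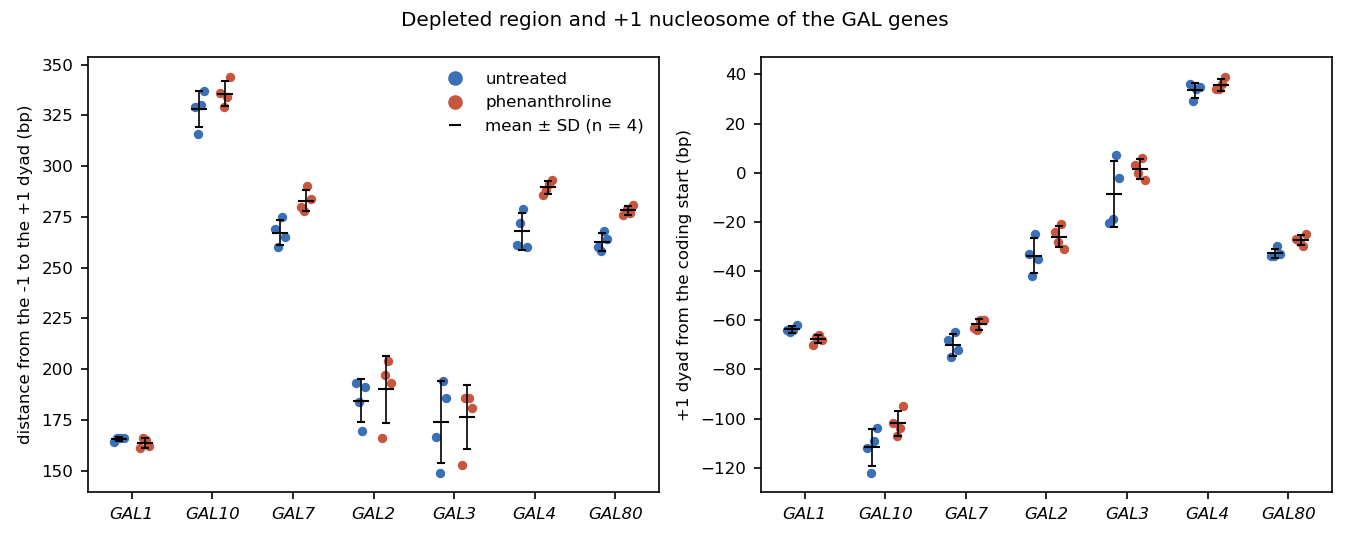
Width of the depleted region (left, bp between the -1 and +1 dyads) and place of the +1 dyad from the coding start (right, bp) for each GAL gene; points are libraries and bars are mean ± SD (n = 4). The treated points of GAL7, GAL4 and GAL80 lie above all untreated points on the left, and the +1 of GAL4 differs by 2.25 bp on the right.

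The number of nucleosomes did not differ beyond the spread between libraries. The 7 regions together held 100, 105, 101 and 102 calls untreated and 105, 104, 105 and 101 treated, means of 102.0 ± 2.16 and 103.8 ± 1.89 that overlapped (exact two-sided permutation p = 0.4; the smallest p this design allows is 0.0286). By gene, 0 of 7 were called with limma, where 0.65% of all genes were, and 0 of 7 had an unadjusted p under 0.05, where 14.0% of all did. Spacing inside the genes was longest in GAL7 and GAL2. The median distance between neighbouring dyads was 176.8 ± 2.63 bp in GAL7, 172.2 ± 3.30 bp in GAL2 and 166.5 ± 1.73 bp in GAL10 untreated, at the 98.7th, 95.3th and 84.1th percentile of all genes. GAL1, GAL4, GAL80 and GAL3 had 163.2, 163.0, 162.8 and 159.1 bp and overlapped each other, and GAL10 overlapped GAL1. Treated values were 174.5 bp in GAL7, 170.8 bp in GAL2 and 166.5 bp in GAL10. With limma 0 of 7 genes were called or had an unadjusted p under 0.05. Of all genes 0.493% were called, 0.0% were called longer and 19.4% had an unadjusted p under 0.05. GAL1 was shorter in every label, at 163.2 ± 3.77 and 156.1 ± 6.37 bp, with overlap (limma adjusted p = 0.299).

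The libraries labelled strain 2 stood apart in the gene body of GAL3, a comparison made after seeing the data. In GAL3 they scored 0.698 untreated and 0.729 treated, above all others of their group by 0.137 and 0.115 against the mean of the rest, at the 99.1th percentile of that deviation over genes in both. In GAL10 they were lowest, at 0.784 and 0.793 (7.07th and 7.83th percentile), and in GAL7 as well, at 0.659 and 0.720 (0.569th percentile untreated, and treated between the percentiles of GAL10 and GAL1). In GAL1, GAL2, GAL4 and GAL80 the percentiles ran from 27.1 to 92.3. An F test among the strain labels with limma called 0 of the 7 gene bodies, where 0.0% of all genes were called, and 3 of 7 had an unadjusted p under 0.05 (42.9%, against 11.8% of all). The insert genes of the labels lie at other loci, and the part of the strain in these values was not tested.

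Of 5 further targets of Gal4, MTH1, PCL10 and PGM2 were called in at least 1 measure, and GCY1 and FUR4 in none. The share of all genes called in at least 1 measure was not counted, and the width alone called 26.0% of all genes. This count therefore has no background, and the shares are given by measure. In gene-body score 1 of the 5 fell and 0 rose, where 3.65% of all genes fell. That was MTH1, a negative regulator of the glucose-sensing pathway, from 0.523 ± 0.0221 to 0.422 ± 0.0269 (limma adjusted p = 0.018), and PGM2, the major phosphoglucomutase, had 0.561 ± 0.0527 and 0.532 ± 0.0152 (0.498). Upstream, MTH1 fell from 0.634 to 0.460 (limma adjusted p = 0.0282) and PCL10, a cyclin of the Pho85 kinase, rose from 0.629 to 0.773 (0.0272), where 14.1% of all genes fell and 1.63% rose. The depleted region was wider at MTH1, 616.8 and 672.0 bp (limma adjusted p = 0.0116, or 0.0523 with the block), and at PGM2, 308.0 and 368.8 bp (0.0212, or 0.0566 with the block), of 4 measured, where 23.9% of all genes were wider. The +1 of MTH1 moved downstream by 14.75 bp (limma adjusted p = 0.0158, or 0.0552 with the block), 1 of 5, where 17.8% of all genes did. The median difference in gene-body score over the 5 was -0.00857, against -0.00597 over all genes.

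Among 15 genes of glucose repression (MIG1, MIG2, MIG3, HXK2, REG1, GLC7, SNF1, SNF4, SIP1, SIP2, GAL83, TUP1, CYC8, NRG1 and NRG2), no gene-body score was called, with a median difference of 0.0170. The smallest p were at SIP2, a subunit of the Snf1 kinase complex, 0.683 ± 0.0552 and 0.789 ± 0.0376 (limma adjusted p = 0.0524), and at TUP1, the corepressor, 0.534 ± 0.0243 and 0.625 ± 0.0479 (0.0526). Upstream, 3 of 15 fell and 0 rose, near the 14.1% and 1.63% of all genes. They were TUP1 from 0.866 to 0.707 (limma adjusted p = 0.00759), MIG2, a repressor related to Mig1, from 0.629 to 0.477 (0.0484), and GLC7, a protein phosphatase, from 0.94 to 0.884 (0.0486, or 0.114 with the block). The depleted region narrowed at NRG1, a repressor, from 200 to 172.9 bp, and at no other of 12 (limma adjusted p = 0.0295, or 0.0683 with the block), where 2.11% of all genes narrowed. The +1 moved downstream by 5.25 bp at TUP1 (limma adjusted p = 0.0197, or 0.0638 with the block) and upstream at MIG2, by -16.25 bp (0.0384, or 0.0526 with the block), of 14, where 17.8% of all genes moved downstream and 1.95% upstream. The number of calls and the spacing were called at none of either list without the block. With the block the number of calls rose at GAL83, a subunit of the Snf1 kinase complex, from 11.25 ± 0.5 to 12.25 ± 0.5 (limma adjusted p = 0.00168, or 0.236 without the block), where 1.02% of all genes were called with the block.

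In the shape of the array the GAL genes were not alike as a set. Pearson correlations of the dyad density, averaged over the 8 libraries, over 1301 positions around the coding start (800 bp before it to 500 bp after it) ran from -0.559 (GAL4 with GAL7) to 0.454 (GAL2 with GAL3) between members. The median correlation of a member with all genes ran from -0.132 (GAL7) to 0.0714 (GAL2), so pairs of members lay on both sides of it. The neighbouring positions of such a profile are not independent, and the values are a description. The genes named next were picked as the highest of 5108, so their values cannot be set against those between members. Over 5108 genes, the profiles most like GAL1 were those of HDA2 (r = 0.788) and FHL1 (0.785), those most like GAL10 MSG5 (0.914) and SAM4 (0.877), and those most like GAL7 PPG1 and NUS1 (0.966 each). GAL2 was most like BCH2 (0.858) and RPL2B (0.815), GAL3 like DGR2 (0.887) and NGL1 (0.83), GAL4 like YOL057W (0.92) and MMS4 (0.919), and GAL80 like YLR345W (0.918) and DAM1 (0.917).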

How the data were processed

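Nucleosome calls of 8 MNase-seq libraries (4 untreated, 4 with phenanthroline) were used. Per the file columns, the authors called nucleosomes with nucleR in each library separately and deposited for every call a score, a width score and a height score, each from 0 to 1 and relative within a library. The build is sacCer3, per the submitters' processing notes. Neither aligner nor read filters nor calling threshold is given in the sources used here. Class W held exactly the calls over both limits, with 0 calls off the rule. Read counts are not used here, so no counting interval is given.

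Groups follow the treatment label and replicates the strain number. Genes came from RefSeq R64 (coding sequence; strand from the systematic name). Offsets of 81 bp beyond the inserted sites were found from the calls and subtracted. Dyads of all libraries were pooled and smoothed (Gaussian SD 20 bp). Peaks of this density, 80 bp or more apart, were taken as consensus nucleosomes, with calls assigned within 60 bp. Gene-body scores needed 3 calls in every library, -1 and +1 nucleosomes calls in at least 4 libraries, and spacing used distances from 100 to 300 bp. Comparisons used limma 3.58.1 (R 4.3.3) over the whole genome, without a block, with Benjamini-Hochberg adjustment at 0.05, and the exact permutation test for single totals. Python 3.11.15, numpy 2.4.6, pandas 2.3.3, scipy 1.17.1 and matplotlib 3.10.9 did the rest. The scripts were tested on simulated data with known changes.

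The same strain label names the same strain in both groups, which pairs the libraries by label. Deviations from the group means correlated between same-labelled libraries at 0.0535, 0.3, 0.104 and 0.0331 for labels 1 to 4, and at most at 0.0407, 0.044, 0.154 and 0.0748 with another label, so labels 3 and 4 deviated more with another label than with their own. Alternatives were the block, leaving out each label, the width or height score alone, scores centred on the library median, calls of score 0.4 or more, assignment within 30 bp, 400 bp upstream, other rules for +1, a consensus in 6 libraries, distances from 120 to 220 bp and no offset subtraction. The genes named were the 7 GAL genes, the 2 members of each list with the smallest p in gene-body score and any called, and the 2 genes most like each GAL gene in profile. Other nucleosomes and distances were picked after their values were seen. The GAL genes and lists were chosen with earlier results of these data known. Distances between neighbouring dyads and the comparison among strain labels were added after seeing the data.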

Additional observations from a re-analysis of the deposited data

Results flagged for a closer look

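In groups of 4 libraries, 6 of 78 groups held a library far from the other 3. For independent, continuous values chance alone sets about 1 in 20 apart. Some of these groups hold whole bp with ties or share nucleosomes, so the count cannot be set against that rate. The untreated library labelled strain 2 was apart at GAL7 with the lowest gene-body score (0.659, the next being 0.814), at GAL3 with the highest (0.698, next 0.569) and at nucleosome GAL2 +508 with the highest score (0.709, next 0.524). The untreated library labelled strain 3 was lowest in the 800 bp upstream of GAL2 (0.752, next 0.813), and it is a library with the displaced GAL2 -222 nucleosome. The treated library labelled strain 1 had the narrowest depleted region of GAL3 (153 bp, next 181 bp). The untreated library labelled strain 1 measured 164 bp between the nucleosomes bordering GAL1, and the other 3 all measured 166 bp. Without the libraries labelled strain 2 the difference in score at GAL2 +508 was 0.274 (limma adjusted p = 0.0115) and that in the gene-body score of GAL3 0.0532 (0.116).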

How the results depend on the processing

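No called result changed sign under any alternative run. Of 92 nucleosomes, 4 were called for score, 1 with the width score alone and 2 to 4 without a label in turn. With the strain label as a replicate block 5 were, GAL1 +96 being added, where 3901 of all 60135 nucleosomes were called. For the alternatives other than the block, shares over all features are not given, so those counts have no background here. Dyad calls went from 0 to 2 with assignment within 30 bp (GAL3 +1107 and GAL80 -301), to 1 with calls of score 0.4 or more (GAL80 -301) and to 0 to 2 without a label (GAL2 +508 without strain 2, GAL3 +1107 and GAL2 +317 without strain 3). Gene-body calls went from 0 to 1 with calls of score 0.4 or more (GAL2, adjusted p = 0.0483). Upstream calls fell from 3 to 1 with 400 bp, to 1 with the block, to 0 with the width score alone and to 0 to 3 without a label. Calls of depleted-region width went from 3 to 0 with the block and 0 to 3 without a label, and +1 calls from 2 to 0 with the block, 1 with the nearest +1 and 0 to 2 without a label. What lies behind these losses was not tested, and dropping a label also leaves fewer libraries. The difference in total calls (1.75) ran from 0.667 to 2.67 without a label. Without offset subtraction GAL3 gave no width or +1 value. GAL1 -66 and GAL3 +984 passed in every alternative that could give a value except the width score alone. Among other single values, 516 kept direction and side, 46 lost the call, 4 gained it and 29 uncalled ones moved. The block changed no other call than those named here and in the report. Scores are relative within a library and the depth is unknown, so a change in absolute occupancy cannot be told apart from a change in the rest of the library.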
